A study of Mus musculus with 8 samples.

Results

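The Nduf genes encode the nuclear-encoded subunits of mitochondrial complex I and several of its assembly factors, and they were read here from 4 lists of ERRα ChIP-seq peaks. A gene was a member when its listed name began with Nduf and at least 1 peak was annotated to it within 20 kb of its transcription start site (TSS) in any list. This gave 39 genes of the 16988 with such a peak, and 198 of their peaks over the 4 lists. RefSeq holds 48 protein-coding Nduf genes with a curated (NM) transcript, and all 39 members are among them. Despite the name, Ndufa4 is known as a subunit of complex IV, and Ndufa4l2 is its hypoxia-induced paralog, so both were kept apart from the complex I roles.

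Complex I, NADH:ubiquinone oxidoreductase, takes electrons from NADH in a peripheral arm that reaches into the mitochondrial matrix and pumps protons across the inner membrane in a membrane arm. Its core subunits carry flavin, the iron-sulfur clusters, the quinone site and the proton channels. Accessory subunits surround and hold the core, and assembly factors build the modules but are absent from the finished enzyme. ERRα (gene Esrra) is an orphan nuclear receptor that works with PGC-1α on genes of oxidative metabolism and binds the ERR response element (ERRE), an extended nuclear receptor half-site.

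The study profiled ERRα in skeletal muscle (gastrocnemius and soleus, per the labels) and in liver of male C57BL/6N mice of 2 to 3 months. The groups were WT mice and ERRα3SA mice, which carry a phospho-mutant form of ERRα and are called 3SA here, and chromatin was immunoprecipitated with an antibody to ERRα. Muscle was pooled from 5 mice and liver from 2 mice per genotype, and each library pooled 3 immunoprecipitations per the labels. The methods of the study give a different number of immunoprecipitations per genotype. The 4 groups were WT muscle, 3SA muscle, WT liver and 3SA liver, each 1 library and 1 list. Genotypes and tissues were therefore compared by values alone, without replicates or p-values.

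The lists held 25427 peaks in WT muscle, 50647 in 3SA muscle, 21813 in WT liver and 29040 in 3SA liver, and gave no read numbers, so the depth was unknown. Each peak had a score from the authors' caller. Scores were used only within a list, as the rank of a gene's best peak (ties given the best rank) and as that rank in percent of the list, called here the top percentage. A small top percentage is a strong peak, and an unchanged rank number gives a smaller one in a longer list.

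The sequences below come from places where called intervals of several lists lay over the same ERRE or its variant. Their part in the binding was not tested. They were read from the RefSeq genome sequence of GRCm38.p6 (mm10) and are given 5′ to 3′, with capitals for the matched 9 bases, TCAAGGTCA for the ERRE or TGAAGGTCA for its variant. The first stretch, upstream of Ndufb4, is on the strand of the gene and holds an ERRE on each strand, so the second reads as the reverse complement. It lies at chr16:37654728-37654825 (minus strand), and the variant closest to the Ndufb4 start lies in chr16:37654397-37654445 (minus strand).
Ndufb4 upstream: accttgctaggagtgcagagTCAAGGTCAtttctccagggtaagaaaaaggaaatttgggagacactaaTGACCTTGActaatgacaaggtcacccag
Ndufb4 start: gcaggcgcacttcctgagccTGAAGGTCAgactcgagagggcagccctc

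The next 4 were covered by a called interval in all 4 lists and lie in introns, at chr17:66101160-66101208 (Ndufv2, minus strand), chr2:140170983-140171031 (Ndufaf5, minus strand), chr17:56718123-56718171 (Ndufa11, plus strand) and chr3:51408726-51408774 (Ndufc1, plus strand).
Ndufv2: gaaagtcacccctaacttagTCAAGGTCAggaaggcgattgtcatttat
Ndufaf5: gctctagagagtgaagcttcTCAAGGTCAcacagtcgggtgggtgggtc
Ndufa11: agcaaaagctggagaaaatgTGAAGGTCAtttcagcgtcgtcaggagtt
Ndufc1: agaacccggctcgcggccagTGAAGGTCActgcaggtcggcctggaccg

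The last 2 are shown because their intervals were not called in every group. The site near Ndufa6 (chr15:82360006-82360054, plus strand, intergenic) lay in intervals of both 3SA lists and of neither WT list. The site in an intron of Ndufs7 (chr10:80252732-80252780, plus strand) lay in intervals of both muscle lists and of neither liver list.
Ndufa6 upstream: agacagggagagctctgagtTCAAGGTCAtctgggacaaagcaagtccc
Ndufs7 intron: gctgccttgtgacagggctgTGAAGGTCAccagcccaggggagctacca

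Nduf genes were bound more often than protein-coding genes in general and ranked far higher. A peak within 20 kb was listed for 33 of the 48 genes in WT muscle, 34 in 3SA muscle, 31 in WT liver and 34 in 3SA liver. The shares of all 21000 protein-coding genes with such a peak were 36% in WT muscle, 50% in 3SA muscle, 31.2% in WT liver and 39.3% in 3SA liver. The Nduf share therefore stayed between 64.6% and 70.8% while the share of all genes moved with the length of the list. In WT muscle the 95% Wilson interval of the Nduf share was 54.7% to 80.1%. Such intervals cover counting error only.

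Relative to the share of all genes, the difference was larger for strong peaks. In percentage points it was larger in 3SA muscle only. The best peak fell in the top 5% of its list for 13 Nduf genes in WT muscle, 22 in 3SA muscle, 9 in WT liver and 12 in 3SA liver. Of all protein-coding genes, 3.28%, 5.73%, 2.81% and 3.64% met this in the same order, beside Nduf shares of 27.1%, 45.8%, 18.8% and 25%. The median top percentage of the bound Nduf genes was 7.10 in WT muscle, 3.80 in 3SA muscle, 19.0 in WT liver and 7.93 in 3SA liver, beside 39.1, 23.7, 37.6 and 34.0 for all bound genes. With the muscle lists brought to equal length, the 3SA muscle median was 7.22, beside 7.10 in WT. A rank number gives a larger percentage in the shortened list by construction, and the part of list length was not tested. In liver at equal length the 3SA median was 10.6, beside 19.0 in WT.

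**Figure D1:**
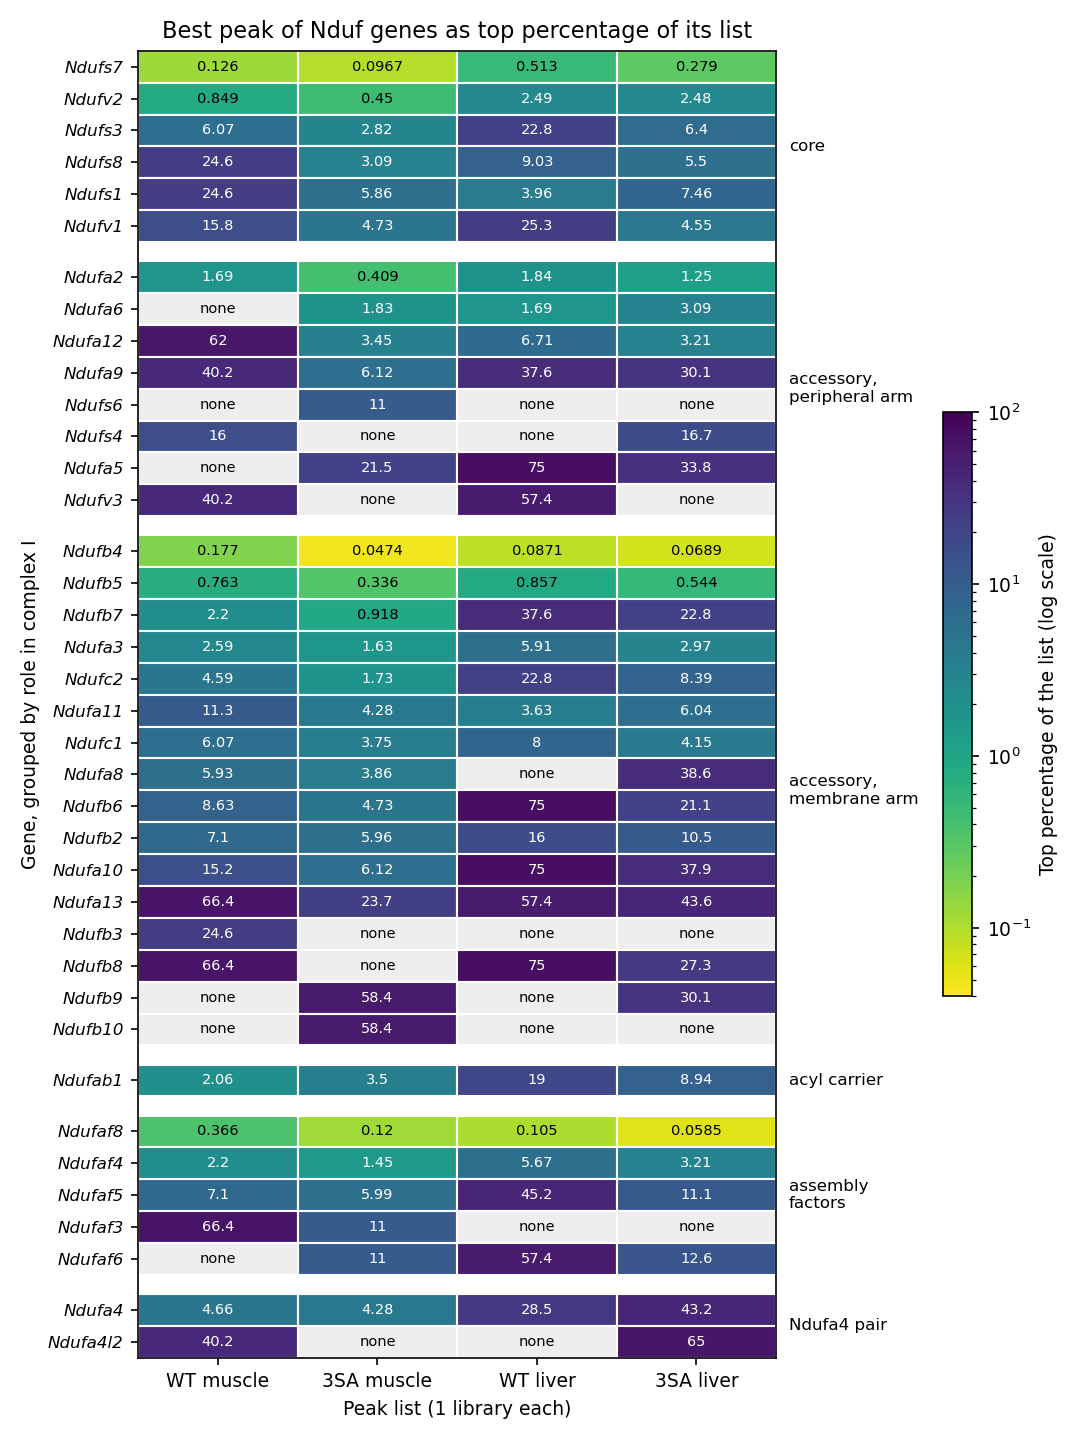
Best peak of the Nduf genes in each list, as the top percentage of that list (colour, log scale, value printed), with genes grouped by role and grey cells marking no peak within 20 kb. Ndufb4, Ndufs7, Ndufb5 and Ndufaf8 stand in the top 1% of all 4 lists, and every core subunit drawn has a value in every list.

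**Figure D2:**
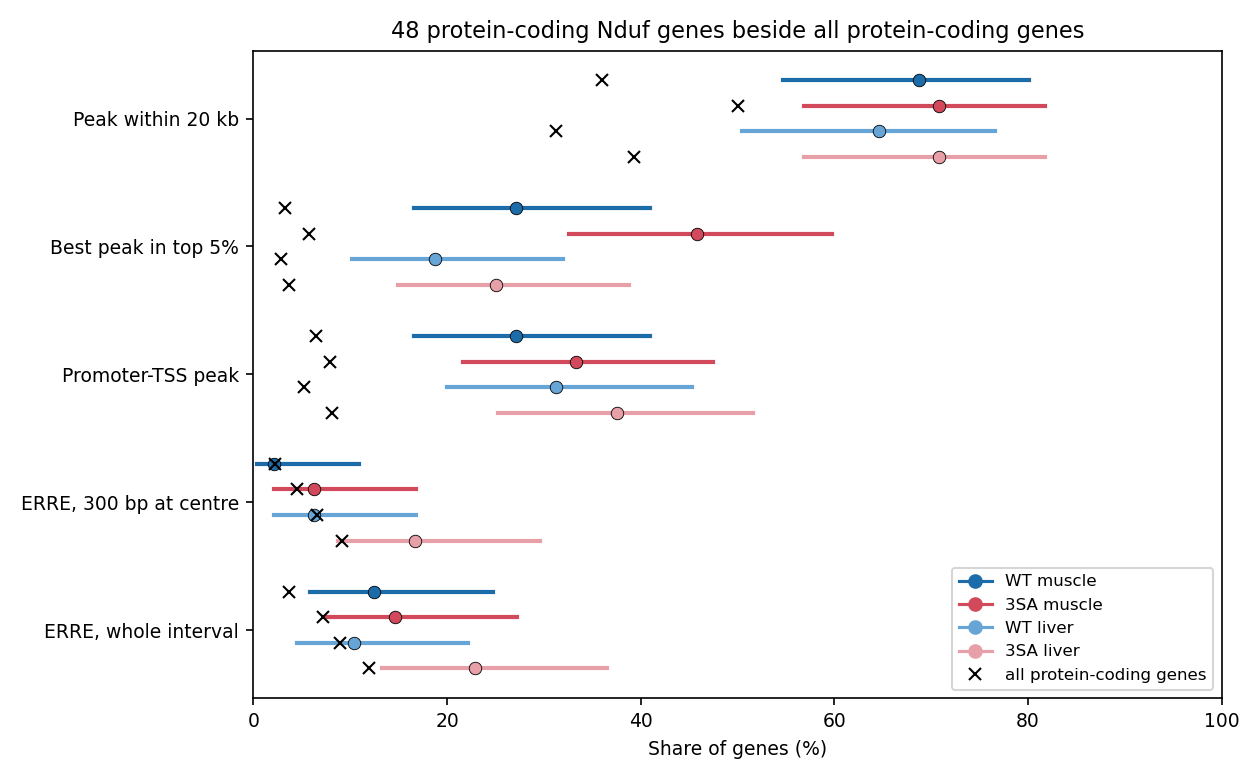
Share of the 48 protein-coding Nduf genes that met each rule (points, with 95% Wilson intervals as lines) beside the share of all 21000 protein-coding genes (crosses), for the 4 lists. The points lie to the right of the crosses for a peak within 20 kb, a best peak in the top 5% and a promoter-TSS peak, and close to them for the ERRE in the central 300 bp of WT muscle and WT liver peaks.

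All 7 nuclear-encoded core subunits were bound in all 4 lists, beside 13% of all protein-coding genes. The other core subunits are encoded by mitochondrial DNA, whose peaks the authors removed. Ndufs7, which holds the iron-sulfur cluster next to the quinone site, had its best peak at rank 32 in WT muscle, 49 in 3SA muscle, 112 in WT liver and 81 in 3SA liver. Each of these peaks lay at the start, with distances of 183, 50, 94 and -73 bp, and the largest of their top percentages was 0.513, in WT liver. Ndufv2, an iron-sulfur subunit of the NADH-oxidising module, ranked 216 in WT muscle, 228 in 3SA muscle, 544 in WT liver and 720 in 3SA liver. Its ranks were thus close between genotypes and better in muscle than in liver.

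The other core subunits described here had weaker peaks. Ndufs1, the largest subunit of the peripheral arm, stood at rank 6260 in WT muscle, 2967 in 3SA muscle, 864 in WT liver and 2167 in 3SA liver. Ndufs3, a scaffold of the quinone module, ranked 1543, 1428, 4981 and 1860 in the order WT muscle, 3SA muscle, WT liver and 3SA liver. In top percentage, Ndufs3 stood higher in muscle than in liver in both genotypes (6.07 beside 22.8 in WT and 2.82 beside 6.40 in 3SA). Ndufs1 stood lower in muscle in WT only (24.6 beside 3.96), with 5.86 beside 7.46 in 3SA.

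Ndufv1, the flavin and NADH-binding subunit, had its best peak at the start in muscle (225 bp at rank 4017 in WT and 120 bp at rank 2394 in 3SA) and upstream in liver (-11622 bp at rank 5512 in WT and -11742 bp at rank 1320 in 3SA). A second 3SA liver peak lay at the start (146 bp, rank 7231). The best site of this gene therefore differed by tissue and had a partner within 300 bp in the other genotype. Ndufs8, an iron-sulfur subunit next to the quinone module, ranked 1563 in 3SA muscle, 1969 in WT liver and 1597 in 3SA liver at 518, 581 and 503 bp. In WT muscle its best peak ranked 6260 and lay at -5933 bp, within the neighbouring gene Aldh3b1. A weaker WT muscle peak lay at the Ndufs8 start (17 bp, rank 16894, score 30).

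Of the 9 accessory subunits of the peripheral arm, 5 were bound in WT muscle and 6 in each other list. The shares of all protein-coding genes were 36% in WT muscle, 50% in 3SA muscle, 31.2% in WT liver and 39.3% in 3SA liver. The difference was not tested in so small a group. Ndufa2, a small thioredoxin-like subunit, led these accessory subunits with ranks of 430 in WT muscle, 207 in 3SA muscle, 402 in WT liver and 364 in 3SA liver, between 30 and 162 bp from its start. Ndufa12, a subunit of the arm that resembles the assembly factor Ndufaf2, ranked 15775 in WT muscle and 1749 in 3SA muscle, and 1463 in WT liver and 932 in 3SA liver. Its WT muscle peak, with a score of 34, was thus close to the lowest score of the list, 30, while the other 3 lists placed it in the top 6.71% or better. Ndufa9, a subunit that binds NADPH, had its best peaks at the start in liver (-297 bp at rank 8204 in WT, -8 bp at rank 8754 in 3SA) and far from it in muscle, in intervals annotated as intron (17246 bp at rank 10219 in WT, 10787 bp at rank 3101 in 3SA).

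The membrane arm is lined by 20 accessory subunits, of which 14 were bound in WT muscle, 14 in 3SA muscle, 12 in WT liver and 14 in 3SA liver. The shares of all protein-coding genes were 36%, 50%, 31.2% and 39.3% in that order. Ndufb4, a subunit of the distal membrane arm, ranked 45 in WT muscle, 24 in 3SA muscle, 19 in WT liver and 20 in 3SA liver, the best of all Nduf genes in 3SA muscle and WT liver. Ndufb5, another distal subunit, ranked 194 in WT muscle, 170 in 3SA muscle, 187 in WT liver and 158 in 3SA liver. Its peak lay within 32 bp of the start in every list, and the start of Mrpl47 lies within 1 kb of it. The ranks of Ndufb4 therefore ranged from 19 to 45 and those of Ndufb5 from 158 to 194, with the WT muscle rank the highest number for both.

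Ndufb7, a subunit on the intermembrane side of the membrane arm, had strong peaks in muscle that did not lie at its start. They were placed 10703 bp away in WT muscle (rank 559) and 10694 bp away in 3SA muscle (rank 465), inside an intron of the neighbouring gene Tecr. In liver the same site ranked 8204 in WT and 6623 in 3SA. A further interval within Tecr, at 12270 bp in WT muscle and 12237 bp in 3SA muscle, ranked 788 and 2394. The annotation assigns these peaks to Ndufb7 by the nearest start only.

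Ndufa3 ranked 659, 824, 1289 and 863 in the order WT muscle, 3SA muscle, WT liver and 3SA liver, and Ndufc2 ranked 1168, 875, 4981 and 2437. Ndufc1 ranked 1543, 1899, 1746 and 1205 in that order. Ndufa11 ranked 2872 in WT muscle, 2166 in 3SA muscle, 792 in WT liver and 1754 in 3SA liver, so that WT liver gave its smallest top percentage, 3.63. All of these are accessory membrane-arm subunits whose best peaks lay between 41 and 595 bp downstream of the start.

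A further 4 membrane-arm subunits were bound in all 4 lists with weaker peaks. Ndufb2 ranked 1805, 3020, 3500 and 3042 in the order WT muscle, 3SA muscle, WT liver and 3SA liver, each within 99 bp of its start. Ndufb6 ranked 2194, 2394, 16370 and 6120, and Ndufa10 ranked 3863, 3101, 16370 and 11020. Both thus had a WT liver peak near the bottom of the list, with a score of 33. Ndufa13, also known as GRIM-19, ranked 16894, 11987, 12528 and 12650, and only its WT liver best peak, at -494 bp, lay near its start.

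Ndufab1, the mitochondrial acyl carrier protein that also serves fatty acid synthesis, ranked 524 in WT muscle, 1773 in 3SA muscle, 4147 in WT liver and 2597 in 3SA liver. The 3SA rank was thus the poorer in muscle and the better in liver. Ndufa4 ranked 1186 in WT muscle, 2166 in 3SA muscle, 6227 in WT liver and 12537 in 3SA liver, and so stood higher in muscle than in liver.

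Among the 8 assembly factors named Nduf, 4 were bound in WT muscle, 5 in 3SA muscle, and 4 in each liver list. The shares of all protein-coding genes were 36%, 50%, 31.2% and 39.3%. For so small a group the difference from these shares was not tested. Ndufaf8, which stabilises the assembly factor Ndufaf5, ranked 93 in WT muscle, 61 in 3SA muscle, 23 in WT liver and 17 in 3SA liver. It thus held the best rank of all Nduf genes in 3SA liver. The interval was intergenic and lay downstream of the short Ndufaf8 gene, between it and Slc38a10, at 2819, 2515, 2979 and 2897 bp from the start in the same order. The centres of the muscle intervals were more than 300 bp apart although the called bases overlapped, so this gene is not counted as shared in muscle below.

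Ndufaf4, which acts with Ndufaf3 on the quinone module, ranked 559 in WT muscle, 733 in 3SA muscle, 1236 in WT liver and 932 in 3SA liver. Ndufaf5, an enzyme that hydroxylates Ndufs7, ranked 1805 in WT muscle, 3035 in 3SA muscle, 9851 in WT liver and 3231 in 3SA liver. Ndufaf3 had muscle peaks alone, at rank 16894 in WT and 5574 in 3SA. Ndufaf6, another assembly factor, had no WT muscle peak, and its best peaks in 3SA muscle (-14408 bp, rank 5574), WT liver (-4270 bp, rank 12528) and 3SA liver (11356 bp, rank 3657) lay at 3 different sites.

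No peak within 20 kb was annotated to 9 of the 48 genes, namely Ndufa1, Ndufa7, Ndufaf1, Ndufaf2, Ndufaf7, Ndufb1, Ndufb11, Ndufb4c and Ndufs5. For some of these the annotation gave the start to a neighbour. A peak within 1 kb of the Ndufb1 start was listed under Cpsf2 in WT muscle (rank 16894) and WT liver (rank 16370), and 1 within 1 kb of the Ndufaf2 start under Ercc8 in 3SA muscle (rank 29571). Ndufb3, whose only annotated peak lay 19727 bp away in WT muscle, had a peak at its start listed under Fam126b in WT liver (rank 9851) and 3SA liver (rank 7934). None of these reached the top 20% of its list.

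Most bound genes had a peak in both genotypes. In muscle 28 Nduf genes were bound in both genotypes, 5 in WT only and 6 in 3SA only, and in liver 30 were bound in both, 1 in WT only and 4 in 3SA only. Of all protein-coding genes, 26.7% were bound in both muscle lists and 23.6% in both liver lists. A peak was counted as shared when an interval centre of the other genotype lay within 300 bp, which held for 22 Nduf genes in muscle and 29 in liver, beside 10.9% and 18% of all genes. In muscle 9.33% of all genes were bound in WT only and 23.3% in 3SA only, so the Nduf share of WT-only genes (10.4%) was near the background and that of 3SA-only genes (12.5%) below it. In liver 7.59% of all genes were bound in WT only and 15.7% in 3SA only, beside 2.08% and 8.33% of the Nduf genes. In muscle Ndufa13, Ndufa9, Ndufaf3, Ndufaf8, Ndufs1 and Ndufs8 were bound in both genotypes without a shared peak, and in liver Ndufaf6 was. At Ndufaf3, Ndufaf8, Ndufs1 and Ndufs8 the called bases of the muscle intervals overlapped although the centres were over 300 bp apart. With at least 1 shared base as the rule, 26 Nduf genes had a shared peak in muscle and 29 in liver. For this rule the share of all genes was not computed.

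Peak by peak, 27 of 43 WT muscle peaks (62.8%) had a 3SA partner, beside 23.4% of all WT muscle peaks within 20 kb. Of the 35 WT liver peaks, 32 (91.4%) had a 3SA partner, beside 49.2% of all. Counted from the longer 3SA lists, 27 of 63 muscle peaks (42.9%) and 32 of 57 liver peaks (56.1%) had a WT partner, beside 12.9% and 34.2% of all. The Nduf peaks were also nearer to starts and higher in rank than peaks in general, so the shares are also given by position and by rank. Within 1 kb of a TSS, 21 of 26 WT muscle Nduf peaks (80.8%) had a partner, beside 29.6% of all such peaks. Among peaks in the top 5% of WT muscle, 13 of 14 Nduf peaks (92.9%) and 81.8% of all peaks had one, so for strong peaks the Nduf genes stood closer to the rest. In WT liver all 25 Nduf peaks within 1 kb of a TSS had a 3SA partner, beside 58.8% of all, while 25 of 33 such peaks in 3SA liver (75.8%) had a WT partner, beside 38.0%.

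The unshared genes mostly had weak or distant peaks. In muscle, the WT-only genes were Ndufa4l2, Ndufb3, Ndufb8, Ndufs4 and Ndufv3, with best scores between 30 and 49. The 3SA-only genes were Ndufa5, Ndufa6, Ndufaf6, Ndufb10, Ndufb9 and Ndufs6, of which only Ndufa6 had a score of at least 100. Ndufa6, an LYR-motif subunit that docks the acyl carrier protein, had no listed peak at any distance in WT muscle. It ranked 928 in 3SA muscle (score 214, 553 bp), 368 in WT liver (score 534, 1004 bp) and 897 in 3SA liver (score 426, 1160 bp). WT muscle alone thus lacked a peak for this gene, while each other list placed its best peak in the top 3.09% or better. The centre of the 3SA muscle interval was over 300 bp from both liver centres, although the called bases overlapped.

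In liver the only WT-only gene was Ndufv3, with a score of 38, and the 3SA-only genes were Ndufa4l2, Ndufa8, Ndufb9 and Ndufs4. Ndufs4, an accessory subunit needed for a stable NADH module, had a 3SA liver peak at rank 4837 (score 119, 226 bp) and no WT liver peak within 20 kb. In muscle it was the reverse, with a WT peak at rank 4057 (score 49, 200 bp) and none in 3SA. Ndufa8 ranked 1509 in WT muscle and 1955 in 3SA muscle, was absent from WT liver and ranked 11212 in 3SA liver.

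**Figure D3:**
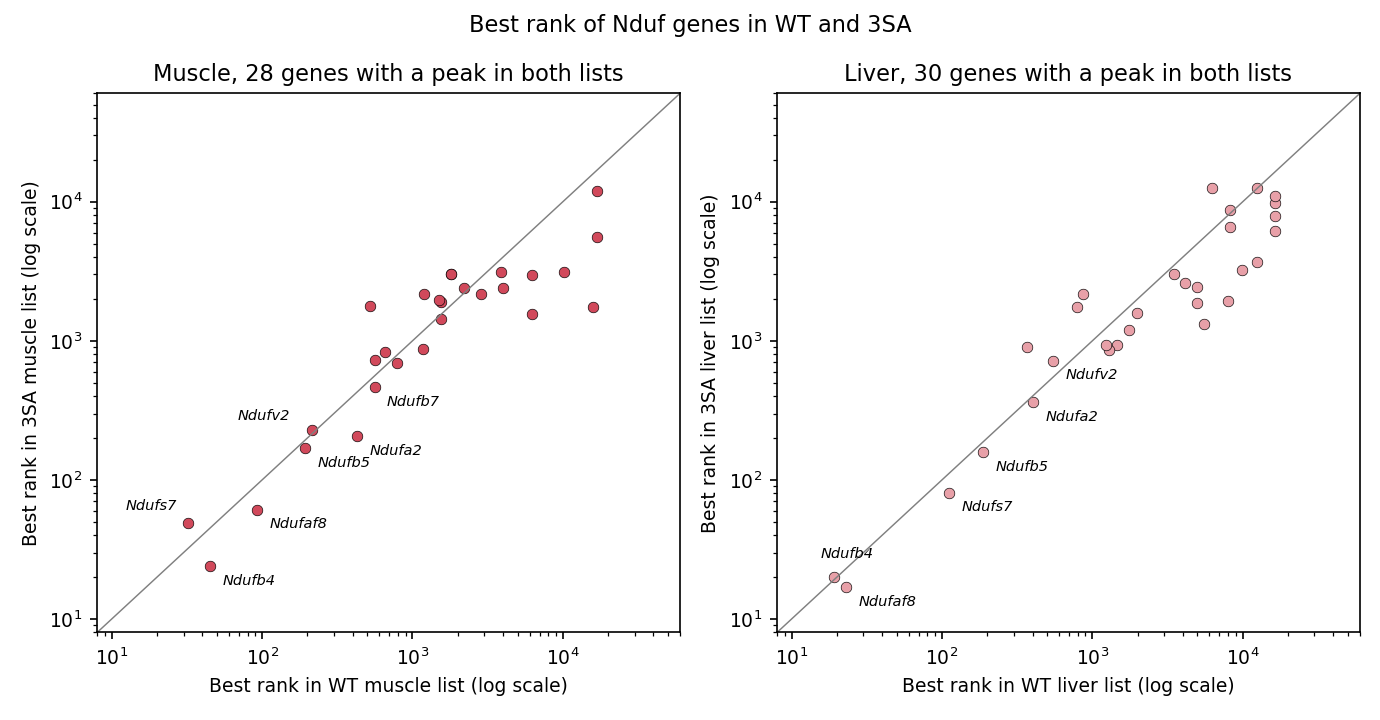
Best rank of each Nduf gene in the 3SA list against the WT list for the 28 genes bound in both muscle lists and the 30 bound in both liver lists (log axes, each point 1 gene, line of equal rank). The strongest genes lie near the line in both tissues, and 17 of 28 genes in muscle and 22 of 30 in liver lie below it, with the better rank number in 3SA.

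Among genes bound in both genotypes, the rank number was better in 3SA for 17 of 28 Nduf genes in muscle, beside 34.8% of all such genes, and for 22 of 30 in liver, beside 45.3%. Across genes, the best ranks in WT and 3SA had a Spearman rho of 0.866 in muscle (28 genes) and 0.903 in liver (30 genes), beside 0.499 and 0.783 for all protein-coding genes bound in both. WT muscle against WT liver gave 0.653 (28 genes), and 3SA muscle against 3SA liver gave 0.796 (31 genes), beside 0.382 and 0.416 for all such genes. These are descriptions across genes of libraries that share a genome annotation and an antibody, and genes are not independent replicates.

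Across tissues, every member had a muscle peak in at least 1 genotype, and 35 of the 39 also had a liver peak. Ndufaf3, Ndufb10, Ndufb3 and Ndufs6 had muscle peaks only, none with a score of at least 100, and no gene had liver peaks only. Of all protein-coding genes, 22.7% were bound in muscle lists only and 10.2% in liver lists only. In all 4 lists 26 Nduf genes were bound, beside 13% of all protein-coding genes. For 18 of them a WT muscle peak had an interval centre of each other list within 300 bp, beside 4.3% of all genes. Among these were Ndufs7, Ndufb4, Ndufb5, Ndufa2, Ndufv2, Ndufb7 and Ndufaf4. The top 1% of all 4 lists held Ndufaf8, Ndufb4, Ndufb5 and Ndufs7, and Ndufa2 and Ndufv2 joined them in the top 5%.

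Binding concentrated at the starts. The best peak lay within 1 kb of the TSS for 25 of 33 bound Nduf genes in WT muscle, 28 of 34 in 3SA muscle, 25 of 31 in WT liver and 27 of 34 in 3SA liver. Among all bound genes this share was 32.9%, 24.3%, 24.9% and 28.2% in the same order. The median distance of the best peak was 200, 209, 297 and 281.5 bp from the start, beside 3788, 5073.5, 4626 and 4162.5 bp for all genes. The median signed distance of the Nduf peaks within 1 kb was 146.5 bp downstream in WT muscle and 162 bp downstream in WT liver, beside 214 and 155.5 bp for all such peaks.

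A peak annotated promoter-TSS was listed for 13 Nduf genes in WT muscle, 16 in 3SA muscle, 15 in WT liver and 18 in 3SA liver, beside 6.5%, 7.92%, 5.24% and 8.15% of all genes. Several peaks just inside a gene were annotated as intron or exon, among them those of Ndufv2, Ndufa3, Ndufc1 and Ndufc2, so a limit of 1 kb gave 26, 28, 25 and 31 genes. The share of all genes under that limit was not computed. The median CpG content of the Nduf peaks was 5.05% in WT muscle, 2.48% in 3SA muscle, 5.51% in WT liver and 3.73% in 3SA liver, beside 1.86%, 1.65%, 1.42% and 1.44% of all peaks within 20 kb. Within 1 kb of a TSS the gap narrowed, to 6.75% beside 6.21% in WT muscle and 6.43% beside 4.54% in WT liver. The part of CpG content in the ranks was not tested.

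**Figure D4:**
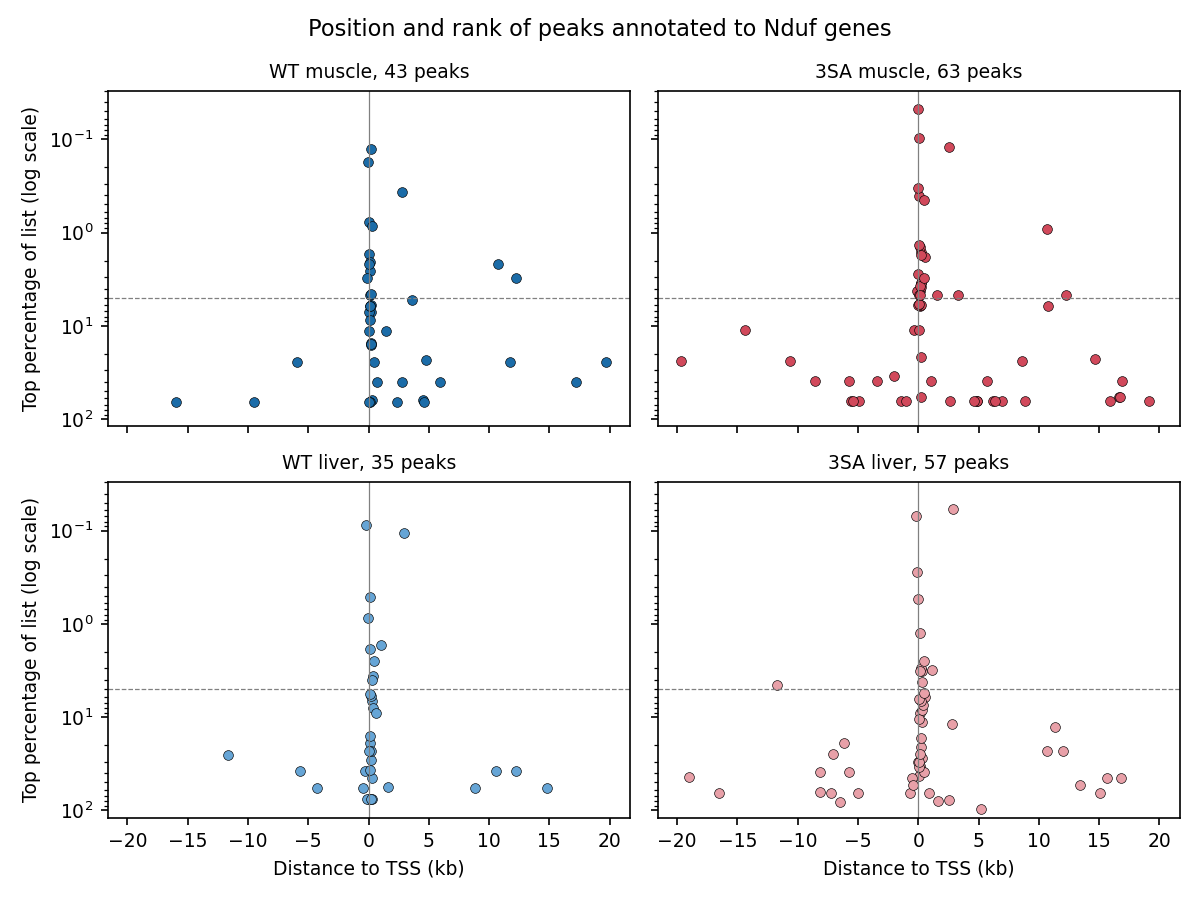
Distance to the TSS in kb (x axis) and top percentage of the list (y axis, log scale, strongest at the top) of the 43, 63, 35 and 57 Nduf peaks in the 4 lists. Of the 60 peaks above the dashed line at 5%, 13 lie over 1 kb from a start, those of Ndufaf8, Ndufb7, Ndufb5, Ndufs7, Ndufa6 and Ndufv1.

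Peaks at the edge of the limit of 20 kb were weak. The outermost peaks inside it were those of Ndufb3 (19727 bp, WT muscle), Ndufa13 (-19661 bp, 3SA muscle) and Ndufa12 (19124 bp, 3SA muscle), and the nearest outside were those of Ndufaf8 (22342 bp, WT muscle), Ndufb9 (22347 bp, 3SA liver) and Ndufaf6 (-24204 bp, 3SA muscle). The scores of these 6 peaks were between 30 and 42.

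The ERRE was counted first in the central 300 bp of each interval, as TCAAGGTCA on either strand. It was found for 1 Nduf gene in WT muscle, 3 in 3SA muscle, 3 in WT liver and 8 in 3SA liver. Over all genes, bound or not, the share was 2.25%, 4.45%, 6.6% and 9.11%. The Nduf shares of 2.08%, 6.25%, 6.25% and 16.7% were near that background in the first 3 lists. The 95% Wilson interval of the 3SA liver share was 8.70% to 29.6%, which holds the background value. These gene shares also depend on how often genes were bound, which was more often for Nduf genes. Per peak within 20 kb, the ERRE stood in 2.33%, 4.76%, 8.57% and 15.8% of Nduf peaks. The values for all such peaks were 4.45%, 4.86%, 15.2% and 14.9%. Per peak, the Nduf value was thus the lower in both WT lists and close to that of all peaks in both 3SA lists. It rests on 1, 3, 3 and 9 Nduf peaks. Within 1 kb of a TSS, the Nduf values were 3.8%, 3.6%, 12% and 9.1%, on 1, 1, 3 and 3 peaks. All such peaks gave 2.5%, 3.1%, 9.6% and 7.4%, so the Nduf value was slightly the higher in each list. Beyond 1 kb the Nduf values were 0%, 5.7%, 0% and 25%, beside 5.1%, 5.2%, 16.6% and 17.1%. The lower WT values thus did not hold near starts, and the part of position was not tested. In the whole called interval the ERRE was found for 6 (12.5%), 7 (14.6%), 5 (10.4%) and 11 genes (22.9%), beside 3.65%, 7.16%, 8.89% and 11.9% of all genes, bound or not. The Nduf intervals had median widths of 632, 493, 697 and 618 bp, beside 470, 461, 461 and 449 bp for all peaks within 20 kb. This search thus covered more sequence for the Nduf genes, and the part of width and of binding frequency was not tested. Over all lists, the intervals held 17 ERREs in 14 genes, and 25 in 19 genes with any base at the second position.

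The elements that were covered in all 4 lists all lay within 1 kb of a start. There were 5 ERREs in 4 genes and 3 variants, 8 elements in 6 genes in all. At Ndufb4, the ERREs of the first sequence lay at -384 and -433 bp from the RefSeq start, 40 bases apart and on opposite strands, and the variant at -53 bp. The pair was between 171 and 411 bp from the interval centres, so the central 300 bp missed it in every list. At Ndufv2 the ERRE lay 375 bp into the gene and between 60 and 119 bp from the centres, the only element found in the central 300 bp of all 4 lists.

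Ndufaf5 had its ERRE 361 bp into the gene, and Ndufa2 had 1 at 220 bp, each covered in every list. Ndufa11 and Ndufc1 had the variant at 385 and 205 bp. These 4 elements were intronic and up to 344 bp from an interval centre. Ndufs7, Ndufb5 and Ndufaf8, also in the top 1% of all lists, had no match to TNAAGGTCA in those intervals, so strong peaks occurred with and without these letters.

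**Figure D5:**
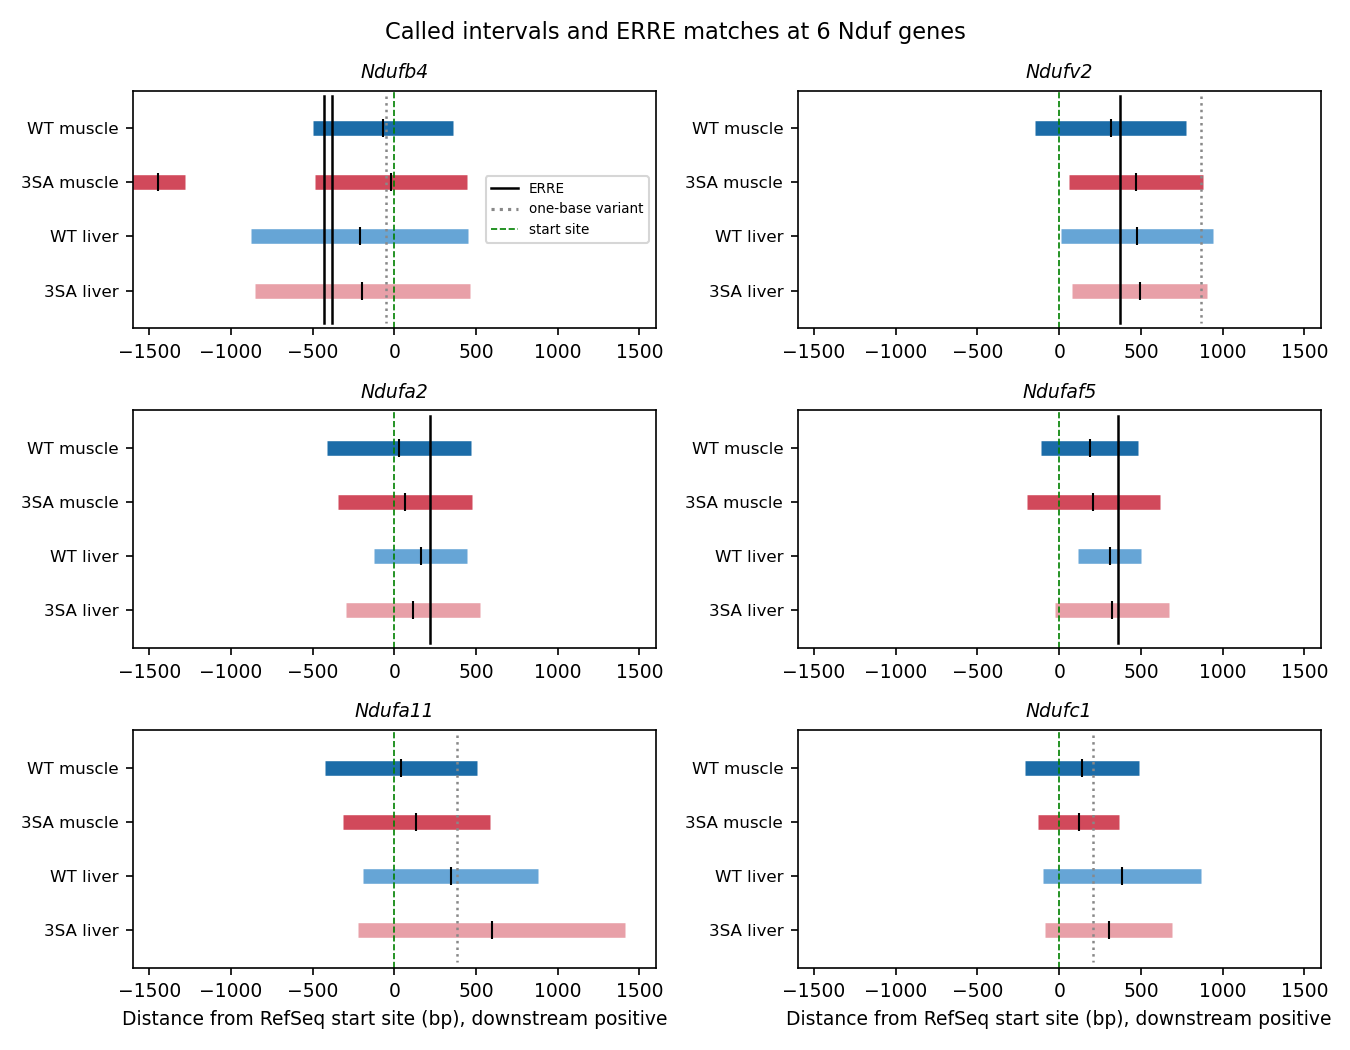
Called intervals of the 4 lists (bars, centre marked by a tick) around the RefSeq start of 6 Nduf genes, in bp with downstream positive, with the ERRE as solid lines and variants of its second base as dotted lines. At Ndufb4 the solid lines at -384 and -433 bp lie upstream of the centre of the bar at the start in each list, and at Ndufv2 the solid line at 375 bp lies near the centres.

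Of the 17 ERREs, 10 were covered in 1 list only, and all 10 lay over 1 kb from the start of their gene. That of Ndufb5, at 1659 bp, lay in the strongest of these peaks, at rank 2394 in 3SA muscle. In 3SA liver the ERREs upstream of Ndufv1 lay at -7099 and -8020 bp, in peaks ranked 7231 and 18337. The element upstream of Ndufa6, at -5739 bp, lay in peaks ranked 19604 in 3SA muscle and 5533 in 3SA liver and in no WT peak. The variant in an intron of Ndufs7, at 3307 bp, lay in peaks ranked 1338 in WT muscle and 2365 in 3SA muscle and in no liver peak. None of these elements lay in the best peak of its gene. Those of Ndufaf6 in WT liver (-4447 bp) and 3SA liver (11228 bp) and of Ndufv3 in WT muscle (5772 bp) did.

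RefSeq promoters (250 bases before to 50 after the start) were available for 41 of the 48 genes. The ERRE was found in 0 of them, beside 0.380% of 16853 promoters, and TNAAGGTCA in that of Ndufb4 alone (2.44%), beside 202 of the 16853. AAGGTCA, which is contained in both of these motifs, was found in 3 (7.32%), beside 4.68%. The NRF1 motif, GCGCANGCGC, stood in 9 of the 41, beside 7.42%, among them the promoters of Ndufb4, Ndufa11, Ndufaf4 and Ndufaf5. The ETS motif, CCGGAAG, stood in 6 (14.6%), beside 13.3%. Each motif was searched on both strands, and these are matches of letters and not measured sites.

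Complex II, which feeds electrons into the same quinone pool from succinate, was also bound in all 4 lists. Of 8 complex II genes, 5 were bound in WT muscle and 7 in each other list. The shares of all protein-coding genes were 36%, 50%, 31.2% and 39.3%. In the top 5% were 4, 4, 3 and 3 of the 8, beside 13, 22, 9 and 12 of the 48 Nduf genes. Of all protein-coding genes, 3.28%, 5.73%, 2.81% and 3.64% were. The difference from the Nduf genes was not tested. Sdhb, the iron-sulfur subunit of complex II, ranked 10 in WT muscle, 18 in 3SA muscle, 96 in WT liver and 59 in 3SA liver. Sdha, its flavoprotein, ranked 85, 93, 320 and 445 in that order, and Sdhd, a membrane anchor, ranked 391, 661, 423 and 471. Sdhb thus stood above every Nduf gene in both muscle lists and below Ndufaf8 and Ndufb4 in both liver lists.

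Of the 10 other complex I assembly factors that RefSeq lists, 6 were bound in WT muscle, 6 in 3SA muscle, 6 in WT liver and 4 in 3SA liver, and 1, 2, 0 and 0 were in the top 5%. The shares of all protein-coding genes were 36%, 50%, 31.2% and 39.3% for a peak, and 3.28%, 5.73%, 2.81% and 3.64% for the top 5%. The difference from the Nduf genes was not tested, and in both 3SA lists the number bound was near the share of all genes. Foxred1, a late assembly factor, ranked 639 in WT muscle, 439 in 3SA muscle, 1236 in WT liver and 1754 in 3SA liver. Ecsit, of the assembly complex that builds the membrane arm, ranked 2187, 1356, 3500 and 1860 in that order. Tmem186, of the same complex, ranked 6260 in WT muscle, 32824 in 3SA muscle and 16370 in WT liver and had no peak in 3SA liver.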

How the data were processed

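The 4 lists of ERRα ChIP-seq peaks were used, 1 per genotype and tissue, and the 4 input samples hold no values used here. Per the labels and the submitters' processing notes, the tools used by the authors were Trimmomatic 0.36, BWA 0.7.12 (mm10), Picard 2.0.1, MACS2 2.1.1.20160309 with input DNA as control, and HOMER 4.9.1, which gave each peak to the nearest start. The deposited peak score is a whole number of at least 30 whose unit is not stated, and it was used for ranks and limits within a list only. The lists give no read numbers, so the depth behind a peak is unknown. The methods describe peaks as fixed windows around summits, but the listed intervals vary in width, with medians of 411 to 435 bp, and distances run from their centres. The CpG and GC contents were deposited as a fraction of the interval and are printed as percent. The other deposited columns are positions, distances in bp and names.

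Members were found by name, and all protein-coding genes by Entrez ID against RefSeq on GRCm38.p6. As a check of the build, the GC share of each Nduf interval was computed from the reference and matched the deposited one within 0.001 for all of them. The members, gene lists and rules were chosen with earlier results of these data known. Genes described with values in every list were the 5 of best rank per list, those bound in all 4 lists, those with a score of at least 100 in 1 genotype or 1 tissue and no peak in the other, and those with an ERRE. Of the other pathway lists, the 3 of best rank in WT muscle were named. The values of 1 gene are not reported here, although it enters the counts. Peak lists do not measure expression, so tissue labels were not checked against markers. Shares have 95% Wilson intervals. Overlap and motif searches were tested on simulated data. The alternatives were score limits of 50 and 100, distances of 5000 and 50000 bp, lists of equal length, assignment by RefSeq starts, subunits only, other sharing distances, another promoter rule, another motif and the whole interval. Computations used Python 3.11.15, samtools 1.23.1, pysam 0.24.0, scipy 1.17.1, numpy 2.4.6, matplotlib 3.10.9 and pandas 2.3.3.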

Additional observations from a re-analysis of the deposited data

Results flagged for a closer look

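At Ndufa4l2 and Ndufs4 the genotypes differed in opposite directions in the tissues, and this difference was not tested, since each group was 1 library. Ndufa4l2 had a peak in WT only in muscle (rank 10219) and in 3SA only in liver (rank 18865), both with scores under 50 and at different sites. Ndufs4 had a peak in WT only in muscle (rank 4057) and in 3SA only in liver (rank 4837), both at the start of the gene.

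Beyond the limit of 20 kb, strong peaks were annotated to Ndufb9, a membrane-arm subunit with weak peaks inside the limit. They lay about 53 kb from its start, in an intron of Mtss1, at rank 236 in WT muscle, 310 in 3SA muscle, 269 in WT liver and 104 in 3SA liver. A neighbouring interval ranked 1050 in 3SA muscle. The annotation gave them to Ndufb9 as the nearest start, and none enters the counts of the report.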

How the results depend on the processing

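Over 13 alternatives, 141 of 193 values stayed within 1.5 times the value reported and 52 did not. Values are given in the order WT muscle, 3SA muscle, WT liver and 3SA liver, or as named. With scores of at least 50, genes bound in all lists fell to 17, peaks to 25, 33 and 21 in the first 3 lists, promoter genes in WT liver to 9, ERRE genes in 3SA liver to 5, and the median top percentage was 3.85 in WT muscle and 5.91 in WT liver. With scores of at least 100, bound genes numbered 12, 22 and 15 in the first 3 lists, genes bound in all lists 8, in both genotypes 12 in muscle and 15 in liver, and genes with a shared peak 11 and 15. At that limit peaks numbered 13, 25, 15 and 25, promoter genes 5, 10, 7 and 9, ERRE genes in 3SA liver 4, and the medians were 1.88, 1.78, 3.63 and 4.54.

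With 5000 bp, 3SA muscle peaks were 41 and ERRE genes in 3SA liver 4, and with 50000 bp ERRE genes in WT muscle were 2. Assignment of every gene with a start within 20 kb gave 69, 127, 70 and 108 peaks and 3, 7, 8 and 13 ERRE genes. With subunits only, ERRE genes in 3SA liver were 5. Lists of equal length gave a median of 7.22 in 3SA muscle. With centres within 100 bp, 19 genes had a shared peak in liver. Promoter genes by a distance of 1000 bp were 26, 28, 25 and 31. With TNAAGGTCA, ERRE genes were 3 in WT muscle and 7 in 3SA muscle, and with the whole interval 6 in WT muscle, 7 in 3SA muscle and 5 in WT liver. The causes were not tested, apart from what each setting removes or adds by construction. No paired analysis was possible because no result comes from a test, and no library could be left out because each group held 1. The lists carry no depth, so a gene without a peak was not called at the depth of that library, which is not absence of binding.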
